A study of Homo sapiens with 4 samples.

Results

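Histone mRNA is made and finished by a small set of factors, some of which also act on other mRNA. Of these factors, 10 were followed here out of the 20348 genes in the deposited count table. The rule took each table entry whose Ensembl identifier maps to NPAT, CASP8AP2, SLBP, LSM10, LSM11, ZNF473, CPSF3, CPSF2, SYMPK or ERI1, and all 10 were found once. K562 cells, derived from a chronic myeloid leukemia, and THP-1 cells, derived from an acute monocytic leukemia, were cultured for 72 h with either DMSO or 100 nM periplocin, a compound from the plant Cortex periplocae. Sample titles call the controls blank, whereas the library names and the methods give DMSO. Poly-A RNA was sequenced from 1 library per condition, 4 in all, so no condition has a replicate and no p-value is given within a line.

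The replication-dependent histone genes, which supply the H1, H2A, H2B, H3 and H4 proteins that package new DNA in S phase, make the main class of animal mRNA that normally ends without a poly(A) tail. NPAT and CASP8AP2 (also called FLASH) gather at these genes in the histone locus body and drive their transcription. SLBP binds a hairpin near the end of the transcript, the U7 ribonucleoprotein pairs with the RNA just behind it, and a complex with CPSF3, CPSF2 and SYMPK cuts between these elements. When one of these factors is missing, transcription can run on to a downstream polyadenylation signal, which leaves histone transcripts with a tail. ERI1 is an exonuclease that binds the same hairpin and trims the end.

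The hairpin that SLBP and ERI1 read lies in the 3′ untranslated region and is shown for 1 gene of each core class, the gene with the most counts among those with an annotated hairpin, a choice made after the counts were seen. The arms of 6 bases are in capitals, the 4 bases of the loop and 5 bases on each side in lower case, and each line runs 5′ to 3′ on the strand of the gene. Sequences are from GENCODE release 29 transcripts on GRCh38.
H2AC6, chr6:26124664-26124689, plus strand: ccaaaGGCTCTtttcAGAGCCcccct
H2BC21, chr1:149886183-149886208, minus strand: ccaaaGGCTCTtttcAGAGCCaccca
H3C10, chr6:27810511-27810536, plus strand: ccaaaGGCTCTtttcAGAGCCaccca
H4C8, chr6:26285126-26285151, minus strand: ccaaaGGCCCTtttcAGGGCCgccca
The H2A, H2B and H3 hairpins shown share all 16 bases, and the H4 hairpin differs within the stem and is still a perfect match of its arms. A hairpin of this form was found in annotated transcripts of 26 of 67 listed replication-dependent histone genes, in 5 distinct sequences, and the sequence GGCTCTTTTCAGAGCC occurred in 13 of these genes. The other 41 include genes with short annotated transcripts, such as H2BC12 (381 bases) and H4C12 (312 bases). They also include genes without an entry in this release, such as H2AC18. A hairpin missing from the annotation therefore does not show that the gene lacks one. In 22 of the 26 genes an annotated transcript ran more than 50 bases past the hairpin, by 1114 bases in the H2AC6 transcript used above, so the annotation holds longer forms that a poly-A library could capture. Of 11 replacement histone genes, most of which are expressed outside S phase as ordinary polyadenylated mRNA, 1 carried the hairpin (H2AX).

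Promoter sequence of the factors themselves, from RefSeq on GRCh38.p14, was matched for 8 of the 10 genes, and the 250 bases before the start were searched on both strands. The letters TTTCGCGC or TTTGGCGC, forms of the site for E2F, the factor family that turns on S phase genes, were found in 2 of the 8, against 0.968% of 35116 promoters in the table. Both occurrences are shown with the matched letters in capitals.
CPSF3, chr2:9423425-9423454, plus strand: gtgccgcggccTTTGGCGCccaggcagcta
CASP8AP2, chr6:89829720-89829749, plus strand: gattactggagTTTGGCGCcaaccgtgttt
The match begins 218 bases before the start in CPSF3 and 149 bases before it in CASP8AP2. The CCAAT box was present in 4 of the 8 (CASP8AP2, CPSF2, LSM10 and NPAT) against 32.0% of all promoters, the GC box GGGCGG in 5 against 42.6%, and TATAAA in 0 against 10.7%. These are matches of letters only, and the 8 were counted by gene while the background was counted by promoter. CPSF3 and CASP8AP2, which share the E2F letters, had unlike log2 ratios of periplocin to DMSO in K562. In THP-1 both were lower in periplocin, at -0.63 and -0.29. Whether the letters bear on these values was not tested.

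Library totals ran from 16381172 to 20622719 counts, and mitochondrially encoded genes took 2.07% to 5.62% of them, lowest in K562 periplocin. The lines matched their labels by marker genes. All 8 erythroid markers exceeded 1 CPM (counts scaled to a common library size) in K562 and their sum was 214 and 138 counts in the THP-1 libraries. THP-1 markers, for monocytic cells, summed to 21384 and 16794 counts in THP-1 and to 1512 and 1455 in K562, although the myeloid gene MPO was low in THP-1 itself (43 and 14 counts). Among 4 lymphocyte markers, the B cell gene MS4A1 was at 0 in each library and the T cell gene CD3D had 121 and 105 counts in K562 and 0 in THP-1. The erythroid markers also moved with the treatment in K562, where their sum was 33470 counts in DMSO and 130215 in periplocin, all 8 being higher with a median log2 ratio of 1.68. The part of that shift in any value below was not tested.

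All 10 factors were expressed in each library, with 254 counts as the lowest value. CPM values are scaled by TMM over the 4 libraries. Per line, the log2 ratio of periplocin to DMSO was taken after TMM scaling of the pair, with an exact 95% Clopper-Pearson interval in brackets. Such an interval covers counting error only and compares 2 libraries, not 2 conditions, and since the counts were estimated and not single reads, it is the least error a value can have. In bulk RNA, fewer cells expressing a gene and less RNA per cell cannot be told apart.

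**Figure D1:**
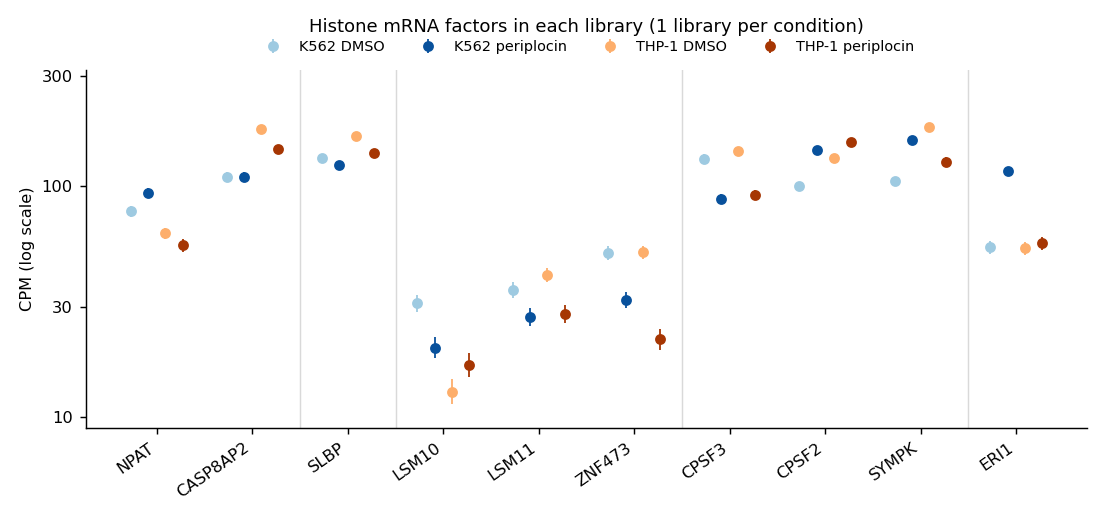
Level of each factor in the 4 libraries, in CPM on a log scale; points are single libraries and bars are 95% counting intervals, with vertical grey lines between functional groups. ERI1 in K562 periplocin (116 CPM) stands above its other libraries (53.8 to 56.7 CPM), and ZNF473 in THP-1 periplocin (21.7 CPM) stands below its own.

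Levels can be compared between genes only per length. Divided by the length of the longest coding transcript, SLBP had the highest level in each library, at 67.3 and 62.5 CPM per kb in the DMSO and periplocin libraries of K562 and at 83.6 and 70.5 in those of THP-1. CPSF3 was the next in all 4, at 41.9, 28.0, 45.0 and 29.0 CPM per kb in the same order. LSM11 was the lowest in all 4, at 5.42, 4.12, 6.29 and 4.26 CPM per kb. The hairpin-binding protein and the nuclease thus had the most mRNA per length, and the U7 subunit LSM11 the least. Not every neighbour in the order could be separated. In K562 DMSO, ERI1 (10.8 CPM per kb) and ZNF473 (10.6) had overlapping counting intervals, and in THP-1 DMSO the same held for ZNF473 (10.7), ERI1 (10.7), NPAT (10.2) and CPSF2 (10.2). In THP-1 periplocin the intervals of ZNF473 (4.49) and LSM11 (4.26) overlapped. Within K562, ERI1 moved from the 7th to the 5th place, with 23.0 CPM per kb in periplocin beside LSM10 at 23.5 and SYMPK at 24.3. With the merged exon length in place of the longest transcript, SLBP and CPSF3 kept the first places in each library, while LSM11 was the lowest in 3 libraries and ZNF473 in THP-1 periplocin.

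In K562, 1 of the 10 factors was over 2-fold higher in periplocin (ERI1) and 0 were over 2-fold lower, where 8.84% and 11.6% of 11863 genes were. Past a 1.5-fold difference there were 2 factors higher (ERI1 and SYMPK) and 2 lower (LSM10 and ZNF473), against 19.0% and 22.0% of all genes. In THP-1, 0 factors were over 2-fold higher and 1 was over 2-fold lower (ZNF473), against 8.04% and 10.5% of 12341 genes. Past 1.5-fold, 0 were higher and 2 lower (ZNF473 and CPSF3), against 17.2% and 21.2%. Median log2 ratios of the 10 were -0.05 in K562 and -0.26 in THP-1, with -0.0124 and -0.0248 for all genes. These counts of 0 to 2 lie near the background shares, so nothing particular to the group is read from them.

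Among the factors that act on transcription, NPAT and CASP8AP2 had small differences. NPAT (ENSG00000149308, chr11:108157215-108222642, minus strand, 18 exons in the longest coding transcript), the substrate of cyclin E and CDK2 that activates histone genes, was at 77.9 CPM in K562 DMSO (1330 counts), 93.6 in K562 periplocin (1626 counts), 62.6 in THP-1 DMSO (1236 counts) and 55.5 in THP-1 periplocin (939 counts). Its log2 ratio was 0.26 in K562 [0.16 to 0.37] and -0.17 in THP-1 [-0.29 to -0.04]. Periplocin was therefore the higher library in K562 and the lower one in THP-1, and both K562 libraries lay above both THP-1 libraries. NPAT overlaps ATM on the opposite strand by 159 bp, with starts 158 bp apart. ATM, the kinase that senses DNA breaks, had 2214 and 6948 counts in K562 against 4575 and 6106 in THP-1, log2 ratios of 1.62 and 0.65. The library kit named in the labels does not mark strand, so reads within the shared bases cannot be told apart, and their part in the NPAT counts was not tested.

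CASP8AP2 (ENSG00000118412, chr6:89829894-89874436, plus strand, 9 exons), which also joins SLBP-bound RNA to the cleavage machinery, was at 110 CPM in both K562 libraries (1884 and 1918 counts), at 178 CPM in THP-1 DMSO (3526 counts) and at 145 in THP-1 periplocin (2460 counts). Its K562 log2 ratio was 0.00 in size with an interval from -0.09 to 0.09, which makes it the factor with the least difference in that line. In THP-1 the ratio was -0.29 [-0.36 to -0.21], and the level was above that of K562 with and without the compound.

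SLBP (ENSG00000163950, chr4:1692800-1712555, minus strand, 8 exons), whose protein is known to accumulate in S phase and to be destroyed at its end, varied little as mRNA. It stood at 133 CPM in K562 DMSO (2270 counts), 124 in K562 periplocin (2148 counts), 165 in THP-1 DMSO (3264 counts) and 139 in THP-1 periplocin (2359 counts). The log2 ratios were -0.11 [-0.19 to -0.02] and -0.24 [-0.31 to -0.16], both within the middle range of all genes (quartiles -0.50 to 0.45 in K562 and -0.49 to 0.40 in THP-1). SLBP protein was not measured in these data.

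The pattern of SLBP over the K562 ratio, the THP-1 ratio and the DMSO ratio of the lines was compared with that of 8035 genes with at least 10 CPM in each line. The 5 with the smallest distance, the root of the summed squared differences, were ZNF140 (0.0467), PABIR1 (0.0501), RREB1 (0.0534), ASCC2 (0.0752) and ZC3H4 (0.0782). ZNF140, the closest, had log2 ratios of -0.08 in K562 and -0.27 in THP-1 and RREB1 had -0.09 and -0.19. All 3 contrasts share libraries, and 4 values cannot set such neighbours apart from other genes with small differences.

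Among the U7-specific subunits, LSM11 and ZNF473 were lower in periplocin in both lines and LSM10 was lower in K562 and higher in THP-1. The medians of all genes were -0.0124 in K562 and -0.0248 in THP-1, so a ratio below 0 is common for a single gene. LSM10 (ENSG00000181817, chr1:36391238-36397892, minus strand, 2 exons) is a ring protein found only in the U7 particle. It was at 31.2 CPM in K562 DMSO (532 counts), 20.0 in K562 periplocin (347 counts), 12.9 in THP-1 DMSO (254 counts) and 16.8 in THP-1 periplocin (285 counts). The log2 ratio was -0.64 in K562 [-0.84 to -0.45] and 0.40 in THP-1 [0.15 to 0.65], so the lines moved in opposite directions and came closer to each other.

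LSM11 (ENSG00000155858, chr5:157743695-157760709, plus strand, 4 exons), its partner in the ring and the docking site for CASP8AP2, was lower in periplocin in both lines. It was at 35.7 and 27.1 CPM in K562 (609 and 471 counts) and at 41.4 and 28.0 CPM in THP-1 (818 and 474 counts), DMSO first. Ratios were -0.40 [-0.57 to -0.22] and -0.56 [-0.72 to -0.39], and the difference between the lines, -0.16 [-0.40 to 0.08], was within counting error.

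ZNF473 (ENSG00000142528, chr19:50025714-50053414, plus strand, 6 exons), the zinc finger protein ZFP100 of the U7 complex, had the lowest log2 ratio of the 10 in each line. K562 held 51.4 CPM in DMSO (877 counts) and 32.2 in periplocin (560 counts), and THP-1 held 51.7 in DMSO (1022 counts) and 21.7 in periplocin (367 counts). Both DMSO libraries were nearly equal and both periplocin libraries were lower, by 1.59-fold in K562 (-0.67 [-0.83 to -0.52]) and 2.37-fold in THP-1 (-1.25 [-1.42 to -1.07]). The interval in THP-1 stayed beyond a 2-fold difference. ZNF473 shares 233 bp with VRK3 on the opposite strand, a kinase-like gene whose log2 ratios were 0.54 and 0.12, the other direction.

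Within the cleavage complex the nuclease and its partner moved apart. CPSF3 (ENSG00000119203, chr2:9423568-9473101, plus strand, 18 exons), the nuclease CPSF73 that cuts histone and ordinary pre-mRNA, was at 132 CPM in K562 DMSO (2256 counts), 88.3 in K562 periplocin (1534 counts), 142 in THP-1 DMSO (2806 counts) and 91.5 in THP-1 periplocin (1548 counts). Ratios of -0.58 [-0.68 to -0.49] and -0.63 [-0.72 to -0.54] differed by -0.04 [-0.17 to 0.08] between the lines, the smallest gap of any factor. ITGB1BP1, an integrin-binding protein gene that starts 21 bp away on the opposite strand, had ratios of -0.34 and -0.39.

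CPSF2 (ENSG00000165934, chr14:92121937-92172145, plus strand, 16 exons), which encodes CPSF100, the catalytically inactive partner of CPSF3, was higher in periplocin in both lines. It was at 100 and 144 CPM in K562 (1709 and 2498 counts) and 133 and 155 CPM in THP-1 (2632 and 2629 counts), with ratios of 0.52 [0.43 to 0.61] and 0.23 [0.15 to 0.31]. The THP-1 counts were almost equal and the THP-1 difference comes from the scaling of a smaller library. NDUFB1, a respiratory complex gene whose start lies 20 bp away, had 93 and 150 counts in K562 against 211 and 186 in THP-1.

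SYMPK (ENSG00000125755, chr19:45815410-45863290, minus strand, 21 exons), the scaffold symplekin, went in opposite directions. It was at 105 CPM in K562 DMSO (1792 counts), 159 in K562 periplocin (2763 counts), 180 in THP-1 DMSO (3551 counts) and 128 in THP-1 periplocin (2160 counts). Ratios were 0.60 [0.51 to 0.68] in K562 and -0.49 [-0.56 to -0.41] in THP-1. FOXA3, which starts 699 bp from SYMPK, had 117 and 93 counts in K562 against 0 and 2 in THP-1, too few there for a ratio.

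ERI1 (ENSG00000104626, chr8:9002147-9116746, plus strand, 8 exons), the exonuclease that trims histone mRNA ends and starts their decay, had the largest difference of the 10 in K562. DMSO held 54.6 CPM (931 counts) and periplocin 116 CPM (2009 counts), a 2.12-fold difference with a log2 ratio of 1.08 [0.97 to 1.2]. The interval reaches just below 2-fold, and 92.3% of genes had a lower ratio. In THP-1, with 53.8 CPM in DMSO (1063 counts) and 56.7 in periplocin (959 counts), the ratio was 0.08 [-0.05 to 0.21], and the level was close to that of K562 DMSO.

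**Figure D2:**
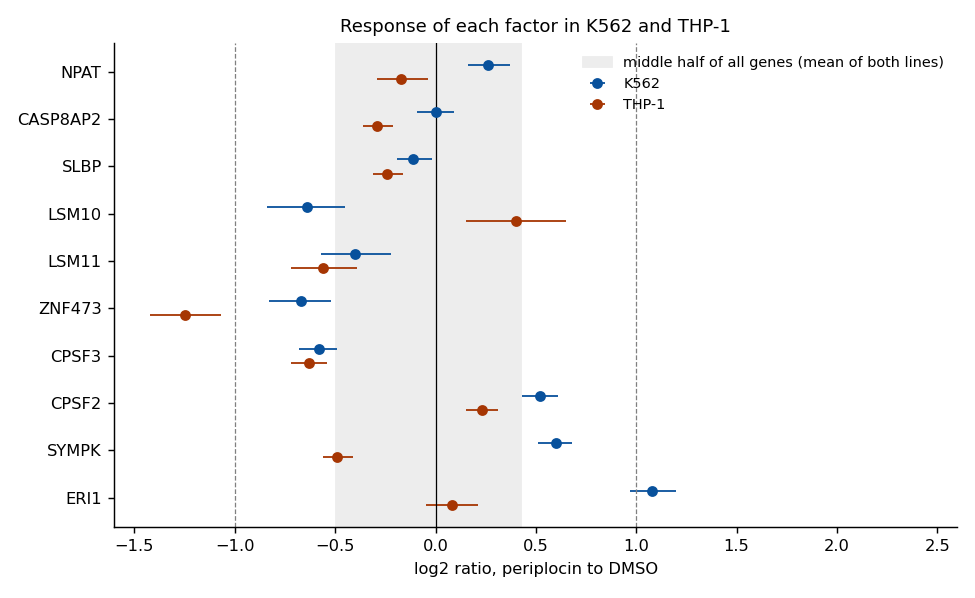
Log2 ratio of periplocin to DMSO for each factor in K562 (blue) and THP-1 (red), with bars for 95% counting intervals, dashed lines at 2-fold and grey for the middle range of all genes, averaged over the lines. LSM10, SYMPK and NPAT lie on opposite sides of 0 in the lines, ZNF473 is the lowest in both, and the CPSF3 points lie together near -0.6.

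The lines were then compared with each other. The log2 ratio in THP-1 minus that in K562 was 1.04 for LSM10 [0.73 to 1.35], -1.08 for SYMPK [-1.2 to -0.97], -1.0 for ERI1 [-1.17 to -0.83] and -0.57 for ZNF473 [-0.80 to -0.34]. For NPAT it was -0.43 [-0.59 to -0.27], for CASP8AP2 and CPSF2 -0.29 [-0.41 to -0.17] each and for SLBP -0.13 [-0.25 to -0.02]. These differences exceed counting error, and with 1 library per condition they could not be set against a spread between cultures. LSM11 and CPSF3 had differences within counting error.

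In DMSO alone, 0 of the 10 factors were over 2-fold higher in THP-1 than in K562 and 1 was over 2-fold lower, against 22.9% and 21.1% of 12848 genes. LSM10 was that factor, 2.42-fold lower with a log2 ratio of -1.28 [-1.5 to -1.06]. SYMPK (0.77 [0.69 to 0.86]) and CASP8AP2 (0.69 [0.61 to 0.77]) were the factors most above K562. ZNF473 (0.01 [-0.12 to 0.14]) and ERI1 (-0.02 [-0.15 to 0.11]) were level between the lines within counting error, so those with the largest treatment ratios started from the same level. The median of the 10 was 0.16, with 0.0271 for all genes.

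With both lines in one edgeR quasi-likelihood fit, with cell line and treatment as terms, the error is how far the lines' responses disagree, on 1 residual degree of freedom and with a biological coefficient of variation of 0.317. Of 13584 genes, 0 (0.0%) had an adjusted p under 0.05 and 1538 (11.3%) an unadjusted p under 0.05, and DESeq2 called 126 after adjustment. Of the 10 factors, 0 passed after adjustment and 1 before it. ZNF473 was that factor, with an edgeR p of 0.0247 and adjusted p of 0.390, and 0.436 after adjustment in DESeq2. CPSF3 followed with an edgeR p of 0.0652 and adjusted p of 0.472. The factors that differed in opposite directions, NPAT, LSM10 and SYMPK, had edgeR adjusted p-values of 0.953, 0.932 and 0.959.

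Ratios of factors within a library do not depend on the scaling between libraries, and 5 pairs were examined, chosen after the counts were seen. CPSF3 to CPSF2, the nuclease to its partner, went from 1.32 to 0.614 in K562, while THP-1 went from 1.07 to 0.589, log2 shifts of -1.10 [-1.23 to -0.98] and -0.86 [-0.98 to -0.74]. The nuclease thus had fewer counts relative to its partner in both periplocin libraries. SLBP to ERI1, the factors that share the hairpin, went from 2.44 to 1.07 in K562 (-1.19 [-1.33 to -1.05]), while THP-1 went from 3.07 to 2.46 (-0.32 [-0.47 to -0.17]).

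The other pairs showed where the lines differ. LSM10 to LSM11, the U7-specific pair of the ring, went from 0.874 to 0.737 in K562 (-0.25 [-0.51 to 0.02]), while THP-1 went from 0.311 to 0.601 (0.95 [0.66 to 1.25]). SYMPK to CPSF3 went from 0.794 to 1.80 in K562 (1.18 [1.05 to 1.31]), while THP-1 went from 1.27 to 1.40 (0.14 [0.02 to 0.26]). NPAT to CASP8AP2 went from 0.706 to 0.848 in K562 (0.26 [0.13 to 0.40]), while THP-1 went from 0.351 to 0.382 (0.12 [-0.02 to 0.27]). Counts are not divided by length here, so only the shift of a ratio can be read and not its distance from 1.

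Further genes of the pathway were taken from lists by role. Proteins that the U7 particle shares with other ribonucleoproteins, and partners of the cleavage step, numbered 10, with medians of -0.20 in K562 and -0.05 in THP-1. Of these, 0 were over 2-fold higher in either line. NELFE, a pausing factor linked to histone mRNA processing, was over 2-fold lower in K562 (1437 and 700 counts, -1.06) and at -0.76 in THP-1. The ring protein SNRPF was over 2-fold lower in THP-1 (545 and 220 counts, -1.08) and at -0.53 in K562. Its ring neighbour SNRPE was at -0.15 in K562 and at -0.72 [-0.87 to -0.56] in THP-1, the same direction as SNRPF. SNRPD3, of the same ring, was above 0 in both lines, at 0.46 and 0.33.

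Factors of the histone promoters and the kinase of NPAT numbered 8, with medians of 0.02 and -0.38, 0 over 2-fold higher, and 1 in K562 and 2 in THP-1 over 2-fold lower. The cyclins that activate CDK2 toward NPAT were low in periplocin. CCNE1 had 285 and 176 counts in K562 (-0.72) and 488 and 163 in THP-1 (-1.35), and CCNE2 had 394 and 180 (-1.16) and 1404 and 703 (-0.77). Their kinase CDK2 was at -0.01 and 0.35. NME1, a nucleoside diphosphate kinase also found in a coactivator of H2B transcription, had 1073 and 298 counts in THP-1 (-1.62) and was at -0.76 in K562. LDHB, listed for the same coactivator, was at 0.04 and -0.51. HINFP, the activator of H4 genes, was at 0.54 and 0.09, POU2F1, which binds H2B promoters, at 0.65 and -0.24, and YY1 at 0.53 and 0.59.

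Genes for the turnover of SLBP numbered 7, and 0 of them passed 2-fold in either line, with medians of 0.52 in K562 and -0.16 in THP-1. In K562, 6 of the 7 lay above 0, and in THP-1, 6 of the 7 lay below. With medians of all genes at -0.0124 in K562 and -0.0248 in THP-1, either sign is common for a single gene. Counts by sign, here and in the lists below, were not tested. CCNA2, the cyclin whose kinase marks SLBP for destruction, was at 0.78 in K562 and -0.53 in THP-1, and CCNF, a ubiquitin ligase subunit that recognises SLBP, at 0.55 and -0.80. The ligase subunit DDB1 was at 0.82 and -0.16 and CUL4A at 0.33 and -0.48. CDK1 was at 0.52 and 0.02, and DCAF11 at 0.49 and -0.01.

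Export and translation of histone mRNA was represented by 4 genes, with medians of 0.12 and -0.12. NXF1, the general mRNA export receptor, was just over 2-fold higher in K562 (1442 and 2944 counts, 1.00) and at 0.73 in THP-1. MIF4GD (SLIP1), which ties SLBP to the translation machinery, was over 2-fold lower in both lines, with 363 and 174 counts in K562 (-1.09 [-1.36 to -0.82]) and 852 and 229 in THP-1 (-1.66 [-1.88 to -1.45]). DDX19B, its helicase partner, was at -0.27 and -0.21, and CTIF, of the same translation complex, at 0.51 and -0.02.

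Histone mRNA decay, the step after ERI1, was represented by 14 genes, with medians of 0.38 and 0.13 and 1 gene in each line over 2-fold higher and 0 lower. XRN1, which degrades RNA from the 5′ end, had 1161 and 2395 counts in K562 (1.02) and 2250 and 3195 in THP-1 (0.74). TUT7, which adds uridines to histone mRNA ends, had 1265 and 1915 counts in K562 (0.57), and THP-1 had 1174 and 2296 (1.2). EXOSC10, of the exosome, was at 0.73 and 0.01, LSM6 at 0.73 and 0.02 and LSM7 at 0.02 and -0.57. LSM6 and LSM7 are both part of the ring that binds oligouridylated ends. In K562, 12 of 14 decay genes lay above 0, ERI1 not counted among them, and in THP-1, 10 of 14.

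Canonical cleavage and polyadenylation, the step that adds tails to other mRNA, held 15 genes with medians of 0.22 and 0.20, and 1 gene in each line was over 2-fold higher and 0 lower. PCF11, a termination factor, was that gene in both, with 2321 and 5469 counts in K562 (1.21 [1.14 to 1.28]) and 2140 and 4117 in THP-1 (1.17 [1.10 to 1.25]). WDR33, which reads the polyadenylation signal, was at 0.35 and 0.56 and its partner CPSF4 at -0.06 and -0.65. CSTF3 was at -0.71 and -0.27, and RBBP6, a regulator of the same complex, at 0.92 and 0.03. CPSF3 belongs to this machinery as well, and it lay below the list's median in both lines. Its partners in the cleavage complex did not share that direction. CPSF2 lay above the median in both lines (0.52 and 0.23), and SYMPK lay above it in K562 (0.60) and below it in THP-1 (-0.49).

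S phase genes, which are expressed when histone mRNA is made, numbered 15. In THP-1 all 15 lay below 0, with a median of -0.66, 3 over 2-fold lower and 0 higher, whereas in K562 the median was -0.09 with 7 above 0 and 8 below, 1 over 2-fold lower and 0 higher. RRM2, a subunit of ribonucleotide reductase, was the lowest in both lines, with 4505 and 1563 counts in K562 (-1.55) and 2765 and 623 in THP-1 (-1.92). CDT1 (-0.17 and -1.01), CDC45 (0.29 and -1.03) and MCM5 (0.74 and -0.44), all of which license or start replication, and HELLS (-0.71 and -0.66), a chromatin helicase, made up the other named genes. Of the 10 factors, 7 lay below 0 in THP-1, and in K562 5 did, with CASP8AP2 at 0 within counting error. What part a smaller share of cells in S phase has in the factors' values was not tested.

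**Figure D3:**
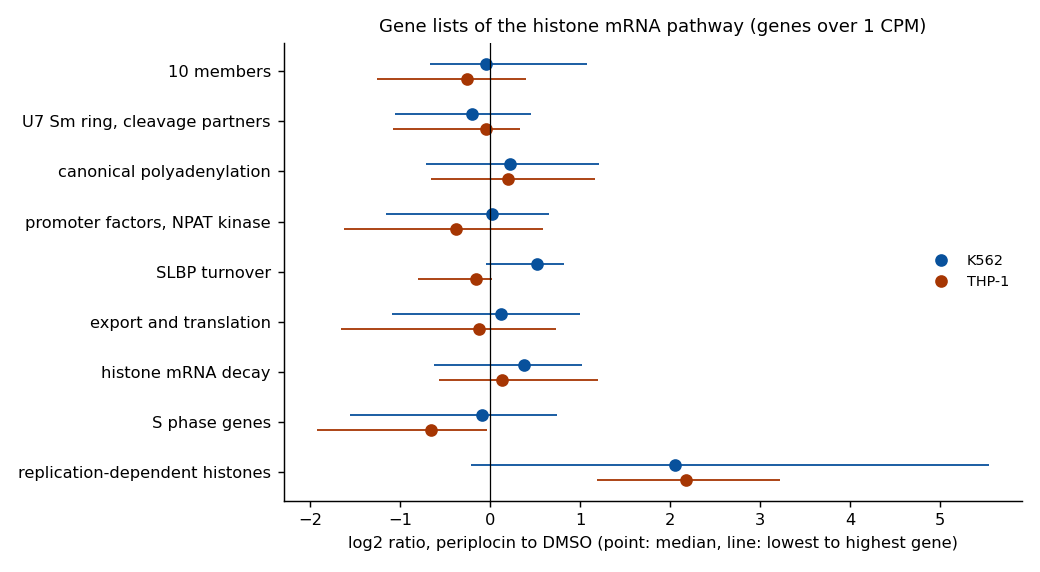
Median (point) and range (line) of the log2 ratio of periplocin to DMSO over the genes above 1 CPM in each list, K562 in blue and THP-1 in red. The 10 factors and the lists of their partners have medians between -0.66 and 0.52, and the replication-dependent histones have medians of 2.05 and 2.18. Some histone genes passed the filter only through periplocin, so the histone medians are partly set by the filter.

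Products of the pathway were read last. Of the 67 listed replication-dependent histone genes, 33 exceeded 1 CPM on average over the pair in K562 and 11 in THP-1. Of these, 31 and 11 were over 2-fold higher in periplocin and 0 lower, against the background shares given above. Their median log2 ratios were 2.05 and 2.18. Some genes passed the filter only through periplocin, such as H1-6 in K562 (0.0586 and 1.9 CPM) and H2BC5 in THP-1 (0.607 and 5.67 CPM). These gene counts and medians are therefore partly set by the filter, whereas the sums below cover all 67 genes. Summed counts went from 7573 to 26796 in K562 (1.80 [1.76 to 1.83]), while THP-1 went from 535 to 1722 (1.92 [1.78 to 2.06]), so the lines had a like ratio from unlike levels. Because the library was selected on poly(A), these counts are of transcripts with a tail or an A-rich stretch, not of all histone mRNA.

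By class, the sums of H2A genes went from 1533 to 6677 counts in K562 (2.10), while THP-1 went from 144 to 542 (2.14), and those of H2B genes from 2255 to 8288 (1.85) and from 145 to 475 (1.94). H3 sums went from 388 to 1540 (1.96) and from 19 to 57 (1.82), and H4 sums from 600 to 1749 (1.52) and from 193 to 566 (1.78). H1, the linker class, went from 2797 to 8542 counts (1.58) and from 34 to 82 (1.5), nearly all in H1-2 (2777 and 8414 counts in K562, 33 and 77 in THP-1). Of the other H1 genes, H1-4 had 5 and 75 counts in K562 and H1-6 had 1 and 33, H1-3 had 12 and 14, H1-5 had 2 and 5, H1-1 had 0 and 1, and none of these had over 3 counts in a THP-1 library. The class ratios lay between 1.5 and 2.14 and each was higher in periplocin.

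Single genes with at least 10 CPM spread around their class. In K562, H2AC18 had a log2 ratio of 2.5, H2AC11 of 2.21, H2BC5 of 2.09 and H2BC4 of 1.92, and H2AC18 was at 2.18 in THP-1. Among those below the sum of their class in K562 were H2AC8 at 1.56, H2BC15 at 1.09 and H4C14 at -0.21. The genes whose hairpins are printed above are given as counts, DMSO first. H2AC6 had 995 and 4201 counts in K562 against 29 and 141 in THP-1, and H2BC21 had 343 and 1615 in K562 against 52 and 101 in THP-1. H3C10 had 320 and 1237 in K562 against 5 and 21 in THP-1, and H4C8 had 267 and 1036 in K562 against 11 and 45 in THP-1. Histone genes with near-identical copies are uncertain as single genes. H4C14 and H4C15 are an example, with 279 and 246 counts for the former and 4 and 196 for the latter in K562, and 127 and 272 beside 47 and 236 in THP-1.

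Replacement histones, whose mRNA mostly bypasses the hairpin pathway, had medians of 0.30 over the 8 of 11 genes above 1 CPM in K562 and 0.36 over all 11 in THP-1, with 1 gene in K562 and 0 in THP-1 over 2-fold higher and 0 lower. CENPA, the centromeric H3, was that gene in K562 (367 and 774 counts, 1.05) and was at 0.14 in THP-1. H2AZ1 was at 0.51 and 0.36 and H3-3A at 0.54 and 0.50. H2AJ (255 and 361 counts, 0.73) and MACROH2A2 (275 and 149 counts, -0.65) were read in THP-1, with at most 5 counts in any K562 library.

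Set beside the factors, the histone sums were over 3-fold higher in both lines. NPAT, CASP8AP2, SLBP, LSM11 and CPSF2 were within 1.5-fold of DMSO in both, with LSM11 near that limit in THP-1 (-0.56). ZNF473 (-0.67 in K562 and -1.25 in THP-1) and CPSF3 (-0.58 and -0.63) were lower in both lines. LSM10 (-0.64 and 0.40) and SYMPK (0.60 and -0.49) went in opposite directions. ERI1, the factor with the largest ratio in K562, was level in THP-1. Factors whose counting intervals lay on the same side of 0 in both lines were SLBP, LSM11, ZNF473 and CPSF3, all lower, and CPSF2, higher. For SLBP in K562 the interval ended close to 0, at -0.02. The share of all genes that meet this rule was not computed, so nothing particular to the group is read from it. Whether the levels of these factors bear on the tailed histone transcripts was not tested, since each line gives 1 pair of libraries.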

How the data were processed

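Poly-A RNA of 4 libraries, 1 per condition, was analysed, grouped by the library names. The table that the authors deposited holds, for each gene, 1 expected count per library, without normalization. The submitters' processing notes name HISAT2, StringTie 1.3.1 and hg38, and the counting program and annotation release are not given in the sources used here. Expected counts were rounded to whole numbers. Of 20348 genes, 20334 were given a symbol and 20118 were found in GENCODE release 29. No value column was left unused. The labels name an Illumina instrument and the methods another platform.

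Log2 ratios were computed with edgeR 4.0.16 (R 4.3.3) TMM factors, a prior count of 0.125 and a filter of 1 CPM on average over the pair. Differences between lines have normal intervals from the counts. The quasi-likelihood fit used genes reaching 10 counts in 2 or more libraries, with Benjamini-Hochberg adjustment, and DESeq2 1.42.0 was the alternative. Called means past 2-fold or 1.5-fold. Steps were tested on simulated data. Python 3.11.15 with pandas 2.3.3 and scipy 1.17.1 was used for lists and figures.

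The 10 factors and all gene lists were chosen with earlier results of these data known. Text names all 10, each gene of a pathway list of up to 8 genes, otherwise the 3 with the largest absolute log2 ratio per line at 10 CPM or more, tabulated protein-coding genes that overlap a factor or start within 1000 bp on the opposite strand, and the 5 genes most like SLBP. The H2AC6, H2AC8, H2BC15, H2BC21, H3C10, H4C8 and H4C15 genes and the markers named were chosen after their values were seen. Some genes that this rule would name are not reported here.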

Additional observations from a re-analysis of the deposited data

Results flagged for a closer look

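In 3 of the 10 factors the periplocin library was higher in one line and lower in the other, by more than counting error in each line. The log2 ratio in THP-1 minus that in K562 was -0.43 for NPAT, 1.04 for LSM10 and -1.08 for SYMPK. The share of all genes that differ in this way was not computed, so nothing particular to the group is read from the count of 3. With 1 library per condition the difference was not tested. LSM10 was the factor with the largest gap between the lines in DMSO (log2 -1.28), and its levels in periplocin were 20.0 CPM in K562 and 16.8 CPM in THP-1.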

How the results depend on the processing

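The log2 ratios of the 10 factors were recomputed with TMM over 4 libraries, DESeq2 size factors, total counts, total counts without mitochondrial genes and a prior count of 2. All 100 values stayed within the counting interval, with a largest shift of 0.05, and the sign changed only for CASP8AP2 in K562, whose ratio of 0 within counting error was 0.03 with DESeq2 size factors and 0.01 with total counts. Without mitochondrial genes, 1 factor in place of 2 was past 1.5-fold higher in K562, since SYMPK went to 0.56, and 3 in place of 2 were past 1.5-fold lower in each line, with CPSF3 at -0.63 in K562 and LSM11 at -0.59 in THP-1. Of all genes, those over 2-fold higher were 16.6% in K562 and 14.4% in THP-1 without a filter, and at 10 CPM or more 5.33% in THP-1. Those over 2-fold lower at 10 CPM or more were 7.44% in K562 and 6.59% in THP-1, so the background falls as low genes are left out. The edgeR fit called 0 genes, 2 without a filter, and DESeq2 called 126, with 0 of the 10 factors in any of these. With merged exon length, 8, 6, 7 and 5 of the 10 kept their place per kb in K562 DMSO, K562 periplocin, THP-1 DMSO and THP-1 periplocin. The edgeR fit has cell line as a term and so compares treatment within lines. No library could be left out, since each condition had 1.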
